A study of Mus musculus with 11 samples.

Results

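Parp1, Parp9, Parp10, Parp11, Parp12, Parp14, Dtx3l and Zc3hav1 are 8 genes of the poly(ADP-ribose) polymerase (PARP) family and its partners, picked by gene symbol out of the 36529 genes counted in BV2 microglial cells. All 8 were found and all 8 passed the filter on low counts in every comparison, with 562 to 38044 counts per gene and sample. With the exception of Parp1, which cells make at all times, they are genes known to respond to interferon. The cells were compared with and without amino-terminal fragments of apolipoprotein E.

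BV2 is a transformed line of mouse microglia, labelled as strain C57BL/6, and all samples are of this single line. In the first experiment, 3 samples received nApoE4, the fragment of apoE4 that holds residues 1 to 151, at 25 μg/ml for 5 h, and 3 untreated samples were their controls. In the second, 2 samples received nApoE3 of the same length, dose and time, and 3 other untreated samples were their controls. The fragments carry a histidine tag and differ from each other by a single amino acid. According to the labels the vehicle was PBS, whereas the study's methods describe conditioned media for untreated cells, and it is not known which one the controls were given. Since each fragment was given in its own experiment with its own controls, fragment and experiment cannot be told apart. The study calls its comparison of the fragments an average of 3 independent trials, whereas 2 nApoE3 samples are present here. Further, no label ties a sample to a separate culture. The p-values therefore measure the spread between these samples, which may be technical.

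PARP enzymes take ADP-ribose from NAD+ and attach it to proteins or nucleic acids. Parp1 sits in the nucleus, senses DNA strand breaks and builds long ADP-ribose chains, whereas Parp10, Parp11, Parp12 and Parp14 attach single units. Parp9 works as a pair with the ubiquitin ligase Dtx3l, and Zc3hav1, also called ZAP or PARP13, lacks the enzyme activity and instead binds viral RNA rich in CpG and directs its decay. Type I interferon switches on such genes through a complex that holds Stat2 and Irf9 and binds a DNA element called the ISRE, and GAS is another element of interferon-responsive promoters.

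The genes lie on 4 chromosomes of the mouse genome GRCm38.p6 (RefSeq spans). Chromosome 16 holds 3 of them in a cluster with Parp14 at chr16:35831892-35871518 on the minus strand, Dtx3l at chr16:35926515-35939027 on the minus strand and Parp9 at chr16:35938470-35972621 on the plus strand. Parp14 and Dtx3l are 54996 bases apart with no protein-coding gene between them, and Dtx3l and Parp9 start head to head and share 458 exon bases on opposite strands. That is 9.40% of the exon bases of Parp9 and 8% of those of Dtx3l, and because the strand setting of the counting is not given in the sources used here, the counts of this pair are uncertain to that extent. On chromosome 6 lie Zc3hav1 (chr6:38305286-38355352, minus), Parp12 (chr6:39086412-39118349, minus) and Parp11 (chr6:127446830-127514233, plus). Between Zc3hav1 and Parp12 are 731059 bases with 8 other protein-coding genes. Parp10 is at chr15:76232995-76243440 on the minus strand and shares 4.80% of its exon bases with Plec on the same strand. Parp1 is at chr1:180568891-180600999 on the plus strand.

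The RefSeq promoter windows, 250 bases before to 50 after a start, covered 5 of the 8 genes with 6 windows, and Parp9, Parp10 and Parp14 had none. Each window was searched on both strands for the ISRE core GAAANNGAAA and the GAS letters TTCNNNGAA. The first occurs in 3.44% and the second in 8.3% of all 32851 promoter windows of this length. Among the 6 windows, 1 held a match, the first of the 2 windows of Parp11, where an ISRE match on the minus strand, 44 bases before the start, overlapped a GAS match 37 bases before it. The upstream bases of that window (chr6:127446590-127446839, plus strand) are shown with the overlapping matches in capitals. Those of Parp12 (chr6:39118350-39118599, minus strand) and Parp1 (chr1:180568641-180568890, plus strand) are shown beside them, as an interferon-linked gene and the constitutive gene whose windows held neither string of letters. A match is a description of letters and not a measured binding site.
Parp11: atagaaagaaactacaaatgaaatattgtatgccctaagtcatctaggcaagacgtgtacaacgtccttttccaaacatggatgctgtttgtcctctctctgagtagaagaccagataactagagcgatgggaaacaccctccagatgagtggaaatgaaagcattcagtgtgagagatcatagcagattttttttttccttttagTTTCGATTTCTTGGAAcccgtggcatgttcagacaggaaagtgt
Parp12: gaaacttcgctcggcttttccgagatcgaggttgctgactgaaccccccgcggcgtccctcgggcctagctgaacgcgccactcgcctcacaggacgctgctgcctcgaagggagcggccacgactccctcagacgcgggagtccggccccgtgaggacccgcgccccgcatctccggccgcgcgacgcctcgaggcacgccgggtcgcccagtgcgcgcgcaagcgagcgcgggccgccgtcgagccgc
Parp1: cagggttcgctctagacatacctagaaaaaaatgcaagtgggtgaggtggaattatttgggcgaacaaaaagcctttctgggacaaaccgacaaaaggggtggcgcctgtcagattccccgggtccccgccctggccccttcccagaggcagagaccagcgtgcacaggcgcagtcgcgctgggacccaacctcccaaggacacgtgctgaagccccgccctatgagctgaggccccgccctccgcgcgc

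Sequencing depth was 39732710 to 44162511 counts on genes per sample in the nApoE4 experiment and 55809688 to 69768666 in the nApoE3 experiment. Levels are given as CPM, counts scaled to each library's size. Replicates of a group correlated at 0.9956 to 0.9990 (Pearson's r of log2 CPM across genes, which are not independent replicates). Untreated replicate 2 of the nApoE4 experiment stood apart from replicates 1 and 3, and the results for the 8 genes were recomputed without it. The same was done for the other named genes and lists, a choice made after seeing the data, and no list's count of genes called higher or lower with nApoE4 moved by more than 1. Of 14 microglial markers, 8 were at 10 CPM or more in every group (among them Itgam, Csf1r, Tyrobp and Spi1), while P2ry12 was listed at 0 in all 11 samples. The summed microglial markers were 3560 to 3896 CPM in the first untreated group, 3815 to 3882 with nApoE4, 2681 to 2796 in the second untreated group and 3272 to 3288 with nApoE3. Single markers moved in both directions. At an adjusted p-value under 0.05 in the edgeR test described below, 2 of 11 tested were higher and 6 lower with nApoE4. With nApoE3, 5 of 12 tested were higher and 6 lower. Of all genes tested, 57.2% and 67.7% passed in either direction. Summed over 5 markers each, neurons, fibroblasts and astrocytes stayed at or under 7.03 CPM and oligodendrocytes at or under 25.4 CPM, with Mog and Mobp at 0. The astrocyte sum was higher in treated samples (6.02 to 7.03 CPM with nApoE4 against 1.20 to 1.39, and 4.36 to 4.53 with nApoE3 against 1.07 to 1.30), and most of it was Slc1a2, at 5.92 to 6.76 CPM with nApoE4 against 0.781 to 1.11 and 4.30 to 4.44 with nApoE3 against 0.985 to 1.19. The 6 T and B cell markers summed to at most 0.564 CPM with Ms4a1 at 0. The 4 endothelial markers, of which Kdr alone reached 10 CPM in every group and Cldn5 was at 0, summed to 149.9 to 177 CPM in the first untreated group and 62.3 to 71.5 with nApoE4, and to 63.1 to 65.7 and 41.7 to 46.8 in the other experiment. The part of these shifts in the results was not tested. In bulk samples of a single line such as these, fewer cells expressing a gene and less of its RNA per cell cannot be told apart.

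The first question was how each gene changed with each fragment against its own controls. With nApoE4, 7 of the 8 genes were higher and 1, Parp1, was lower at an adjusted p-value under 0.05 (edgeR's quasi-likelihood test with Benjamini-Hochberg adjustment over all genes tested). Across all 14240 genes tested, 57.2% were called, 28.6% higher and 28.6% lower. With nApoE3, again 7 were higher and Parp1 was lower, where 67.7% of 14817 genes were called, 33.1% higher and 34.6% lower. A rise of more than 2-fold was called for 6 of the 8 with either fragment, against 10.2% of all genes with nApoE4 and 9.6% with nApoE3. No fall of more than 2-fold was called among the 8, where 7.46% and 6.57% of all genes fell by that much. The median log2 fold change of the 8 genes was 1.34 with nApoE4 and 1.91 with nApoE3, while the medians over all genes were 0.0013 and -0.0026. For each of the 8 genes, the treated samples did not overlap their own controls, with either fragment. This was also so for 63.6% of all genes tested with nApoE4 and 77.6% with nApoE3. The 8 genes were chosen with earlier results of these data known, so these comparisons with all genes are descriptions and not independent support.

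**Figure D1:**
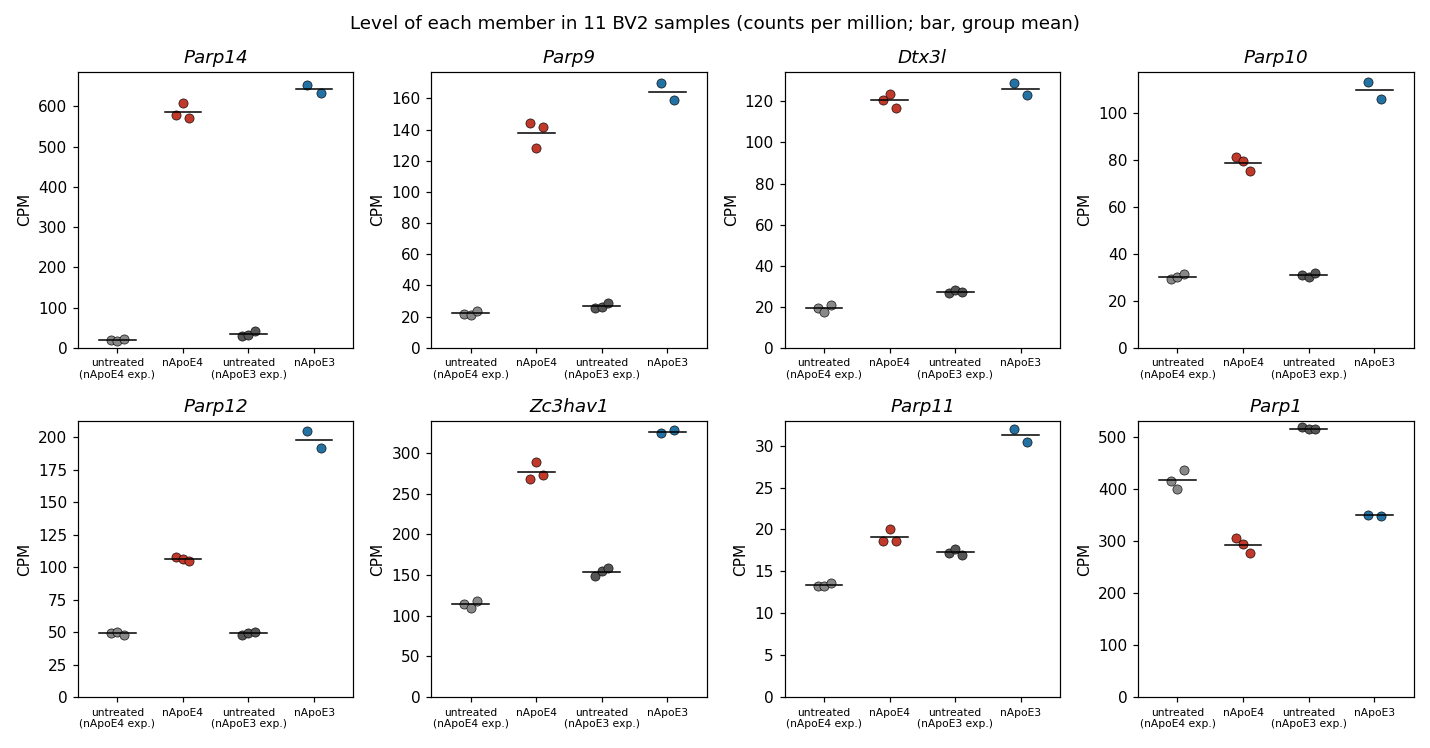
Level of the 8 genes in each of the 11 samples, in CPM on a linear axis from 0, 1 panel per gene; points are samples, bars are group means, and the groups are nApoE4 (n = 3), nApoE3 (n = 2) and their untreated controls (n = 3 each). Treated samples lie above their own controls in 7 panels, from 16.1 to 41.6 CPM up to 570.4 to 654 CPM for Parp14, and below them in the panel of Parp1.

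Parp14, a large protein with macrodomains that attaches single ADP-ribose units and is known from macrophages as a modifier of Stat signaling, had the largest change of the 8. Its untreated levels in the nApoE4 experiment were 20.0, 16.1 and 21.4 CPM, and the treated levels were 578, 607 and 570.4 CPM. In the nApoE3 experiment they were 29.5, 32.6 and 41.6 CPM untreated and 654 and 632 CPM treated. The 5 treated samples lay close together at a high level and the 6 untreated samples were all low, with the second untreated group above the first. Parp14 rose 30.6-fold with nApoE4 (log2 fold change 4.94, SE 0.11, adjusted p = 1.15e-09) and 18.6-fold with nApoE3 (4.22, SE 0.085, adjusted p = 6.01e-13). Ranked by fold change, it was number 91 of 14240 genes with nApoE4 and number 150 of 14817 with nApoE3. Without untreated replicate 2, the lowest control, its log2 fold change with nApoE4 was 4.82.

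Parp9 and Dtx3l, the macrodomain protein and the ubiquitin ligase that bind each other, rose together with both fragments, by nearly the same amount with nApoE4 but not with nApoE3. Parp9 was at 21.9, 21.3 and 23.4 CPM in untreated cells and at 143.9, 128 and 142 CPM with nApoE4. In the other experiment it was at 25.3, 25.9 and 28.6 CPM untreated and 169.6 and 159 CPM with nApoE3. Replicate 2 was the lowest of both the untreated and the treated samples of the nApoE4 experiment, and no treated sample came near a control. Parp9 rose 6.24-fold with nApoE4 (log2 fold change 2.64, SE 0.071, adjusted p = 2.59e-09) and 6.17-fold with nApoE3 (2.62, SE 0.045, adjusted p = 1.65e-13).

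Dtx3l was at 19.5, 17.3 and 20.6 CPM untreated and at 120.9, 124 and 117 CPM with nApoE4. With nApoE3 it was at 129 and 123 CPM, against 26.7, 28.2 and 27.2 CPM in the controls. The treated levels of the experiments overlapped, whereas the untreated levels did not. Dtx3l rose 6.31-fold with nApoE4 (log2 fold change 2.66, SE 0.076, adjusted p = 3.58e-09) and 4.58-fold with nApoE3 (2.20, SE 0.034, adjusted p = 7.37e-14). The ratio of Parp9 to Dtx3l counts in the same sample was 1.12, 1.23 and 1.14 in the first controls and 1.19, 1.04 and 1.21 with nApoE4, ranges that overlap. In the nApoE3 experiment it was 0.946, 0.918 and 1.05 untreated and 1.32 and 1.29 treated, which do not overlap. The overlap of their exons bears on this ratio, which was not tested.

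Of the other enzymes that attach single ADP-ribose units, Parp10 is a mostly cytoplasmic enzyme with RNA-recognition and ubiquitin-binding parts. It was at 29.2, 30.2 and 31.3 CPM untreated and 81.4, 79.9 and 75.4 CPM with nApoE4, and at 31.0, 30.3 and 32.1 CPM untreated and 113.5 and 106 CPM with nApoE3. The 6 untreated samples lay within a narrow range, and the nApoE3 samples were above the nApoE4 samples. Parp10 rose 2.62-fold with nApoE4 (log2 fold change 1.39, SE 0.059, adjusted p = 5.02e-08) and 3.52-fold with nApoE3 (1.82, SE 0.037, adjusted p = 6.83e-13).

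Parp12, a zinc-finger enzyme found at the Golgi and in stress granules, began from equal levels in the controls of both experiments. It was at 49.6, 50.0 and 47.8 CPM untreated and 108, 106 and 104.5 CPM with nApoE4. With nApoE3 it was at 204 and 192 CPM, against 48.1, 49.3 and 50.3 CPM in the controls. No nApoE4 sample reached the level of a sample treated with nApoE3. Parp12 rose 2.17-fold with nApoE4 (log2 fold change 1.12, SE 0.053, adjusted p = 1.08e-07) and 4.01-fold with nApoE3 (2.00, SE 0.033, adjusted p = 1.12e-13).

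Parp11, an enzyme of the nuclear envelope known to modify a ubiquitin ligase that acts on the type I interferon receptor, was the least abundant of the 8. Its levels were 13.2, 13.3 and 13.6 CPM untreated and 18.6, 20.0 and 18.7 CPM with nApoE4, then 17.2, 17.6 and 17.0 CPM untreated and 32.0 and 30.5 CPM with nApoE3. The second untreated group lay nearer to the nApoE4 samples than to its own treated samples. Parp11 was called higher with both, by 1.43-fold with nApoE4 (log2 fold change 0.52, SE 0.069, adjusted p = 1.37e-04) and by 1.80-fold with nApoE3 (0.85, SE 0.041, adjusted p = 2.27e-09). Its change was the smallest of the 7 that rose.

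Zc3hav1, the RNA-binding antiviral factor, was at 114, 109 and 118.5 CPM untreated and 267, 289 and 273 CPM with nApoE4. In the nApoE3 experiment it was at 148, 154 and 159 CPM untreated and 324 and 328 CPM treated. All treated samples were above all controls. It rose 2.44-fold with nApoE4 (log2 fold change 1.29, SE 0.063, adjusted p = 1.30e-07) and 2.11-fold with nApoE3 (1.08, SE 0.028, adjusted p = 6.50e-12).

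Parp1, the sensor of DNA breaks, was the single gene of the 8 that fell. It was at 416, 399.6 and 436 CPM untreated and 306, 295 and 276 CPM with nApoE4, then 518, 514 and 514 CPM untreated and 350.2 and 347 CPM with nApoE3. The untreated samples of the nApoE3 experiment were the highest and the nApoE4 samples the lowest, without overlap between any of the 4 groups. Its log2 fold change was -0.51 with nApoE4 (SE 0.067, adjusted p = 1.38e-04) and -0.57 with nApoE3 (SE 0.020, adjusted p = 8.34e-11), a fall of 1.42-fold and 1.48-fold. Without untreated replicate 2 of the nApoE4 experiment all 8 genes kept their calls there, with log2 fold changes from -0.54 for Parp1 to 4.82 for Parp14.

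**Figure D2:**
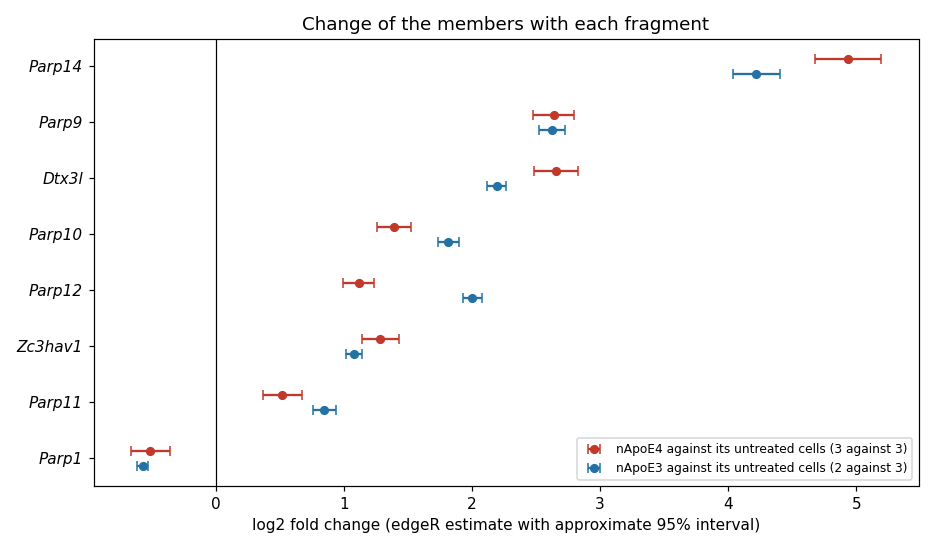
Log2 fold change of the 8 genes against the untreated controls of the same experiment, with approximate 95% intervals from edgeR, for nApoE4 (3 against 3 samples) and nApoE3 (2 against 3). The intervals of 7 genes lie above 0, up to 4.94 and 4.22 for Parp14, and those of Parp1 lie below 0 at -0.51 and -0.57.

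The order of the genes by abundance was read on a per-length scale, as counts scaled to library size and exon length (RPKM), which allows levels of different genes to be roughly compared. The lengths are those of GENCODE M21 and the annotation used in the counting is not given, so close ranks may depend on this choice. In both untreated groups Parp1 was the most abundant by far, at 78.8 ± 3.49 RPKM (SD, n = 3) and 97.3 ± 0.406 RPKM (SD, n = 3), and the order below it was Zc3hav1, Parp12, Parp10, Parp9, Dtx3l, Parp14 and Parp11. Parp14 at 2.06 ± 0.298 RPKM and Parp11 at 1.90 ± 0.035 RPKM overlapped in the controls of the nApoE4 experiment, and no other neighbours in this order did. In treated cells Parp14 came first, at 62.9 ± 2.1 RPKM with nApoE4 (SD, n = 3) and 69.1 ± 1.61 RPKM with nApoE3 (SD, n = 2). Parp1 was next and Zc3hav1 after it, and Parp11 remained the lowest at 2.72 and 4.45 RPKM. With nApoE4, Parp9 and Parp12 overlapped at 28.3 and 26.6 RPKM, and with nApoE3, Zc3hav1 and Parp12 overlapped at 50.0 and 49.6 RPKM.

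The summed RPKM of the 8 genes went from 128 ± 4.91 to 258 ± 5.50 with nApoE4 and from 157 ± 1.91 to 320 ± 7.39 with nApoE3 (SD). Parp1 made up 61.8% of that sum in the controls and 21.4% with nApoE4, and 62.0% and 20.6% in the nApoE3 experiment. Parp14 went from 1.61% to 24.4% and from 2.36% to 21.6%. The share of Parp1 thus changed by more than its CPM, as the sum rose in the same samples. Parp12 held 9.66% and 10.3% in the nApoE4 experiment, and 7.85% and 15.5% in the nApoE3 experiment.

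**Figure D3:**
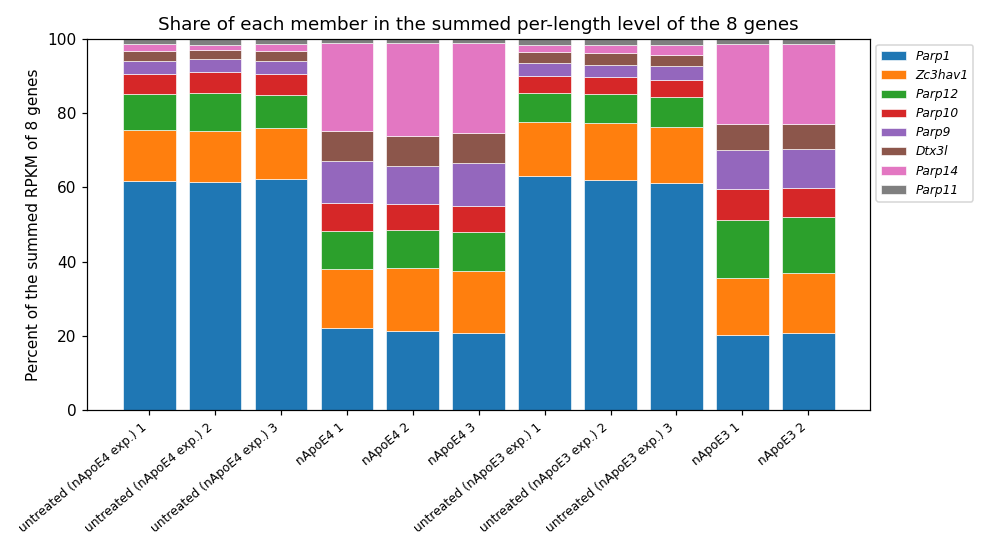
Share of each of the 8 genes in their summed RPKM, in percent, with 1 stacked bar per sample for all 11 samples. Parp1 fills around 62.0% of the untreated bars and around 21.4% of those with nApoE4, and Parp14 grows from 1.61% to 24.4%.

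The next question was whether the fragments changed these genes by different amounts, tested as an interaction over all 11 samples. At an adjusted p-value under 0.05, the change was greater with nApoE4 for 2 genes and greater with nApoE3 for 3, and 3 were not called. Across 15287 genes, 28.3% were called, 14.4% with a higher and 13.9% with a lower log2 fold change with nApoE4. None of the 8 differences exceeded 2-fold, where 2.58% of all genes were called higher and 3.35% lower by that much. Log2 differences are given as the change with nApoE4 minus the change with nApoE3.

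Parp12 had the largest difference, -0.90 (SE 0.064, adjusted p = 5.88e-07), and its untreated levels in the experiments differed by -0.013 on the log2 scale (adjusted p = 0.808). The differences of Parp10, -0.44 (adjusted p = 6.13e-04), and Parp11, -0.34 (adjusted p = 0.00424), were also toward nApoE3. The call of Parp11 did not hold in every alternative fit, as given below. Parp14, at 0.71 (SE 0.17, adjusted p = 0.00689), and Dtx3l, at 0.45 (SE 0.086, adjusted p = 0.00169), changed by more with nApoE4. For these 2 genes the treated levels ran the other way or overlapped: Parp14 was at 585 ± 19.5 CPM with nApoE4 and 643 ± 15.0 CPM with nApoE3, and Dtx3l at 120.5 ± 3.35 and 126 ± 4.10 CPM. Their untreated levels were 19.2 ± 2.77 against 34.6 ± 6.28 CPM for Parp14 and 19.1 ± 1.70 against 27.4 ± 0.725 CPM for Dtx3l. Without untreated replicate 2 of the nApoE4 experiment the differences were 0.60 for Parp14 and 0.38 for Dtx3l, and both were still called.

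Parp9, Parp1 and Zc3hav1 were not called, which does not show that they responded alike. The difference of Parp9 was 0.0063 with a 95% interval from -0.20 to 0.21, and its sign depends on the processing. That of Parp1 was 0.049, with an interval from -0.11 to 0.21. Zc3hav1 differed by 0.20 (interval 0.040 to 0.35, adjusted p = 0.0592), close to the threshold. It passed when untreated replicate 2 or 3 of the nApoE4 experiment was left out (0.17 with adjusted p = 0.0487, and 0.23 with adjusted p = 0.0296).

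Between the untreated groups themselves, 6 of the 8 genes were higher in the nApoE3 experiment and none was lower, where 69.3% of 14249 genes were called, 34.4% higher and 34.9% lower. No gene of the 8 differed by more than 2-fold there, against 5.4% of all genes called higher and 12.5% lower by that much. The log2 differences ran from 0.24 for Parp9 (adjusted p = 0.0100) to 0.83 for Parp14 (adjusted p = 0.00115), with Dtx3l at 0.50, Zc3hav1 at 0.42, Parp11 at 0.35 and Parp1 at 0.29. Parp10 (0.023, adjusted p = 0.677) and Parp12 (-0.013, adjusted p = 0.808) were not called, and their untreated ranges overlapped. Each fold change above is thus set against controls that differed between the experiments for 6 of the 8 genes.

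**Figure D4:**
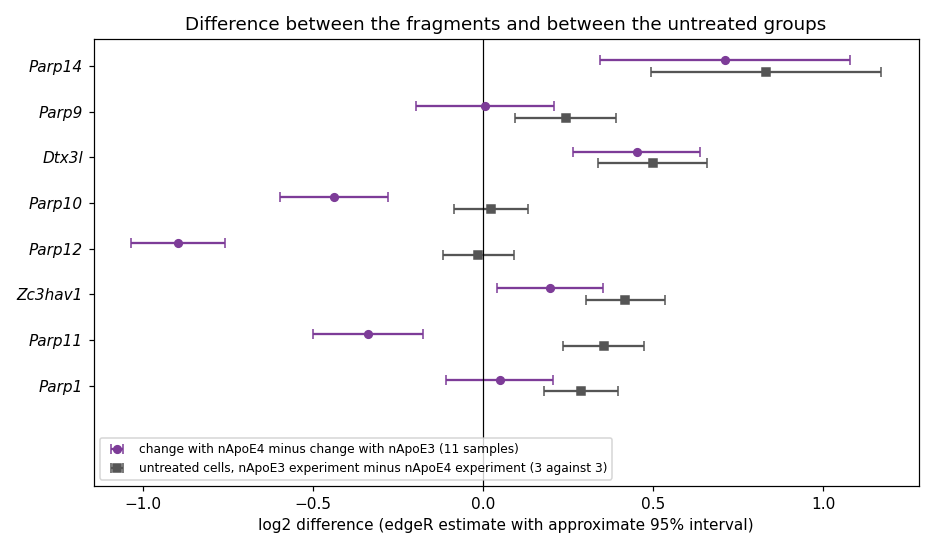
Log2 differences of the 8 genes with approximate 95% intervals from edgeR; circles are the change with nApoE4 minus the change with nApoE3 over 11 samples, and squares are the untreated cells of the nApoE3 experiment minus those of the nApoE4 experiment (3 against 3). Parp12 lies at -0.90 for the fragments and at -0.013 for the untreated cells, whereas Parp14 lies at 0.71 and 0.83.

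The remaining 9 genes of the PARP family show how the rest of the family moved. With nApoE4, 4 of the 9 were called higher, 2 lower and 3 were not called, and with nApoE3, 5 were higher, 3 lower and 1 was not called, with median log2 fold changes of 0.065 and 0.38. Thus 6 and 8 of the 9 were called, where 57.2% and 67.7% of all genes were. Parp8, a little-studied member, rose by 1.04 and 1.27 on the log2 scale with nApoE4 and nApoE3. Parp16, an enzyme of the endoplasmic reticulum membrane, rose by 1.05 and 1.20, from 2.15 to 3.03 CPM in untreated cells to 5.0 to 6.28 CPM in treated cells. Parp3, a partner in double-strand break repair, rose by 0.81 and 1.02, and Parp4, the PARP of vault particles, by 0.72 and 0.38.

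The tankyrases, which mark proteins with ADP-ribose chains for degradation, fell slightly. Tnks changed by -0.55 and -0.29 and Tnks2 by -0.28 and -0.21 with nApoE4 and nApoE3, all called. In the first controls Tnks was at 88.1, 62.1 and 95.9 CPM, so untreated replicate 2 was far below the others and near the highest nApoE4 sample at 60.3 CPM. Without that replicate the change of Tnks with nApoE4 was -0.72, still called. Parp2, the relative of Parp1 in break repair, was at -0.12 with nApoE4 (not called) and -0.30 with nApoE3 (called lower), and Parp6 was at 0.065 and -0.071 (neither called).

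Tiparp, or Parp7, a target of the aryl hydrocarbon receptor that restrains interferon signaling, was at 0.023 with nApoE4 (adjusted p = 0.770) and 0.92 with nApoE3 (adjusted p = 1.45e-10). It was at 87.1, 87.2 and 83.1 CPM untreated and 84.3, 84.1 and 92.1 CPM with nApoE4, which overlap, and at 54.7, 56.5 and 58.9 CPM untreated and 107 and 108 CPM with nApoE3. Its untreated level was lower in the nApoE3 experiment (log2 difference -0.61, adjusted p = 1.37e-05 in the same test). The difference between the fragments was -0.90 (adjusted p = 1.54e-06). Parp8 (-0.24, adjusted p = 0.0201) and Parp3 (-0.23, adjusted p = 0.0400) also differed, toward nApoE3, and the other 6 were not called. Without untreated replicate 2 of the nApoE4 experiment, Tnks (-0.43, adjusted p = 4.50e-04) and Parp2 (0.21, adjusted p = 0.00948) were called too, where the values with it were -0.27 and 0.16.

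**Figure D5:**
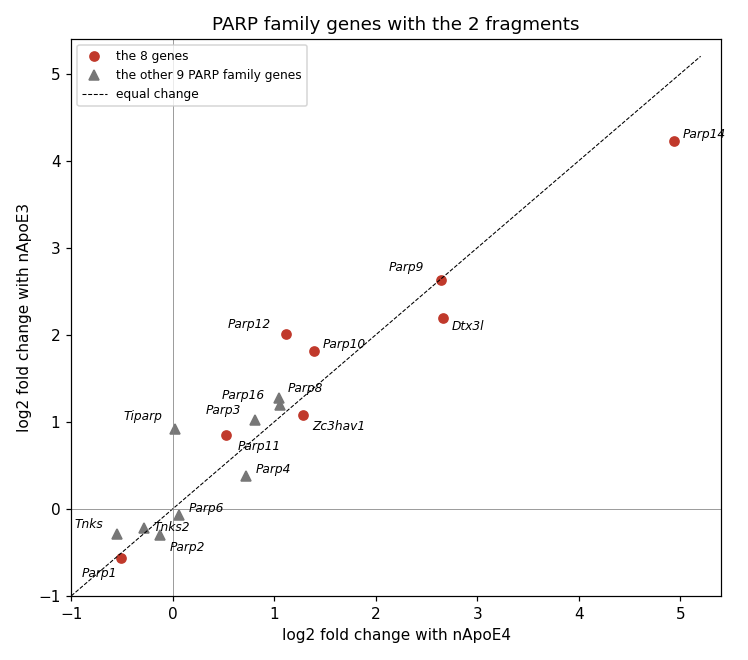
Log2 fold change with nApoE4 (horizontal axis) against that with nApoE3 (vertical axis) for the 8 genes (circles) and the other 9 genes of the PARP family (triangles), with a dashed line of equal change. Parp14 lies farthest out at 4.94 and 4.22, and Tiparp lies near 0 for nApoE4 and at 0.92 for nApoE3.

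The signal chain of type I interferon was taken as 8 genes. With nApoE4, 7 of the 8 were called higher and none lower (median log2 fold change 1.60, against 28.6% of all genes called higher), and with nApoE3 all 8 were higher (median 1.63, against 33.1%). The gene not called with nApoE4 was Jak1, a kinase of the receptor, at 0.019 (adjusted p = 0.801), which was named after its value was seen. Stat2 and Irf9, which are parts of the complex that binds the ISRE, rose by 2.27 and 2.42 with nApoE4 and by 2.61 and 2.35 with nApoE3. Tyk2, the other kinase of the receptor, rose by 1.44 and 1.16. Ifnb1, which encodes interferon beta, had 0, 2 and 2 counts untreated and 43, 30 and 50 with nApoE4, and 3, 7 and 9 untreated and 75 and 72 with nApoE3, so no fold change is given for it.

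Partners of single members were described in the same way. Of 17 genes of the machinery with which Zc3hav1 degrades RNA, 16 were tested with each fragment, and 10 were called higher and 3 lower with nApoE4, and 7 higher and 6 lower with nApoE3 (median log2 fold changes 0.29 and 0.056). Over all genes, 28.6% were higher and 28.6% lower with nApoE4, and 33.1% and 34.6% with nApoE3. Trim25, the ubiquitin ligase that Zc3hav1 needs for its antiviral action, was at 0.28 with nApoE4 and 1.16 with nApoE3, both called, a difference of -0.89 (adjusted p = 7.81e-06). N4bp1, an endonuclease relative of the Zc3hav1 cofactor Khnyn, rose by 1.42 and 1.09, and the kinase Riok3 by 1.01 and 1.20. Khnyn itself was called lower with both, at -0.40 and -0.57, and was named after its values were seen. Mex3b, an RNA-binding protein, was higher with nApoE4 (0.69) and lower with nApoE3 (-2.25), on counts of 22 to 173 per sample. It was at 0.681, 0.558 and 1.01 CPM untreated and 1.28, 1.35 and 0.982 CPM with nApoE4, which overlap. In the nApoE3 experiment it was at 2.45, 2.07 and 1.92 CPM untreated and 0.515 and 0.39 CPM treated. Its untreated level was 2.82-fold higher in the nApoE3 experiment (adjusted p = 4.51e-04 in the same test). The opposite directions of Mex3b are thus set against controls that differed. Without untreated replicate 2 the nApoE4 value was 0.51 and no longer called (adjusted p = 0.112).

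Of 15 partners of Parp1 in strand-break repair, 2 were higher and 7 lower with nApoE4, and 4 higher and 10 lower with nApoE3 (medians -0.17 and -0.29), and none changed by more than 2-fold. The share of all genes called lower was 28.6% with nApoE4 and 34.6% with nApoE3. Of the 4 other Deltex ligases related to Dtx3l, 1 was higher and 2 lower with nApoE4, and 2 higher and 2 lower with nApoE3, none by more than 2-fold. Of all genes, 57.2% and 67.7% were called in either direction.

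The genes whose pattern over the 11 samples was most like that of Parp14 were sought among 11682 genes, as the smallest root mean square difference of centred log2 CPM. They were Gpr84 (0.18), a receptor for medium-chain fatty acids on myeloid cells, Xaf1 (0.23), an interferon-induced pro-apoptotic gene, Ntng2 (0.26), a netrin-G, Slc7a11 (0.29), the cystine-glutamate exchanger, and Pde4b (0.34), a cAMP phosphodiesterase. None of the other 7 genes of the group came as close, since Parp9, the nearest of them, was at 1.01. Parp9 and Dtx3l were at 0.16 from each other and Parp10 and Parp12 at 0.15. The genes most like Parp1 were Vps26b (0.054), a retromer subunit, Tm6sf1 (0.055), Cdca2 (0.062), a mitotic phosphatase partner, Inpp5a (0.062), an inositol phosphatase, and Ccdc85c (0.067). These likenesses are over samples in 4 groups and describe shared deviations from each gene's own mean alone.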

How the data were processed

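RNA of 11 BV2 samples was sequenced. The authors deposited 1 table of HTSeq read counts per sample, not normalized. The submitters' processing notes name Trim Galore 0.5.0, FastQC 0.11.8, HISAT2 2.1.0, HTSeq 0.11.0 and GRCm38.p6. The annotation release, strand setting and overlap mode of the counting are not given in the sources used here. Tallies that name no gene (unaligned, ambiguous, multiply mapped or without feature) were left out of library sizes, so that 76.0 to 77.7% of the tallied reads remained, and ambiguous reads were 3.24 to 3.56%.

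Samples were grouped by their labels. Treated samples were set against the controls of the same experiment in edgeR 4.0.16 (R 4.3.3), with filterByExpr, TMM scaling, its quasi-likelihood test and p-values adjusted by Benjamini-Hochberg over all genes tested, at a threshold of 0.05. Standard errors and 95% intervals are approximate and were derived from the test statistic. Fragments were compared by an interaction of 4 group means over 11 samples, and the untreated groups were compared with the same test. The study used DESeq2. DESeq2 1.42.0, its size factors, other filters, 1 fit of all samples, the replicate number as a block, a fold above 2 and leaving out each sample in turn were the alternatives. Steps were tested on simulated data. The depth of 39732710 to 69768666 counts limits counting error alone, and replicate spread comes from the fits.

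CPM used the TMM-scaled library sizes, and RPKM divided them by union exon lengths of GENCODE M21. Values of likeness used log2 CPM with a prior count of 2 and genes with a mean of at least 1 CPM. Promoters came from RefSeq (GRCm38.p6). The 8 genes and all lists were chosen with earlier results of these data known. Named with values were the 8 genes, the other 9 PARP family genes, and in other lists the genes called with a fold above 2 with either fragment, at most 5 per list by size, plus the 5 genes most like Parp14 and Parp1. Some genes of the lists are not reported by name here.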

Additional observations from a re-analysis of the deposited data

Results flagged for a closer look

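The change differed between the fragments, by the test of the difference itself, for 5 of the 8 genes (log2 change with nApoE4 minus log2 change with nApoE3, edgeR's quasi-likelihood interaction test over 11 samples). Of all 15287 genes tested, 28.3% were called, 14.4% higher and 13.9% lower. The difference of Parp12 was -0.90 (adjusted p = 5.88e-07), and its samples treated with nApoE4 lay apart from those treated with nApoE3. This was also so for Parp1, Parp9 and Zc3hav1, whose differences were not called, and for Parp10, Parp11 and Parp14. How many of all genes lay apart in this way was not counted, and 69.3% of genes were called between the untreated groups. Parp10 differed by -0.44 (adjusted p = 6.13e-04) and Parp11 by -0.34 (adjusted p = 0.00424), though the call of Parp11 did not hold in every alternative fit. In the other direction, Parp14 differed by 0.71 (adjusted p = 0.00689) and Dtx3l by 0.45 (adjusted p = 0.00169). Fragment and experiment cannot be told apart in these values, and the untreated levels of Parp11, Parp14 and Dtx3l differed between the experiments.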

How the results depend on the processing

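All 8 genes were called with each fragment under every alternative other than a fold above 2, which left 6 with each. In the main fits 57.2% and 67.7% of all genes were called, and 10.2% and 9.6% were higher by more than 2-fold. With a fold above 2, the count went from 5 to 0 for the difference between the fragments and from 6 to 0 for the untreated groups. For these 2 comparisons, 2.58% and 5.4% of all genes were called higher by that much, and 3.35% and 12.5% lower. Of 400 values of the 8 genes under the alternatives, 383 kept their direction and their side of the threshold. Leaving out a sample left the nApoE3 group with 1 sample in some fits, which was assumed to vary like the others. The difference of Parp9, never called, changed sign with DESeq2's size factors (-8.5e-04) and on leaving out some single samples (range over all of these -0.049 to 0.070). The untreated difference of Parp12, never called, turned to 0.0029 with all 11 samples in one fit and ran from -0.034 to 0.015 as each untreated sample was left out. The difference of Zc3hav1 passed the threshold with DESeq2 (0.19, adjusted p = 0.0238), with genes of at least 1 count (0.23) and with genes of a mean of at least 10 counts (0.21, adjusted p = 0.0449). The cause was not tested.

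Replicate numbers are shared between groups. Deviations of same-numbered samples from their group means correlated at -0.17 to -0.0079, and none of the 3 nApoE4 samples correlated best with its own number. No sign of pairing by number was thus seen. With so few samples per group, the check cannot exclude a shared culture or batch. With the replicate block, the difference of Parp9 was -0.048 and that of Parp11 was -0.33 (adjusted p = 0.0720, no longer called). The block moved the calls over all genes from 8145 to 7036 with nApoE4, from 10034 to 9783 with nApoE3 and from 4331 to 2307 for the difference.

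Depth was not limiting for the 8 genes, as the lowest count of any was 562. The precision of the nApoE3 comparison is set by 2 treated samples.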

Other observations

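The enzymes that make, use and remove ADP-ribose and NAD+ showed mixed changes. Of 20 tested genes of NAD+ supply and use, 4 were called higher and 5 lower with nApoE4, and of 19 tested with nApoE3, 6 were higher and 7 lower (edgeR's quasi-likelihood test, median log2 fold changes 0.021 and -0.081). In all, 57.2% and 67.7% of all genes were called. Cd38, a surface enzyme that breaks down NAD+, was at 1.57, 1.87 and 1.26 CPM untreated and 24.4, 24.5 and 24.9 CPM with nApoE4, and at 5.14, 5.17 and 5.78 CPM untreated and 48 and 45.3 CPM with nApoE3. The treated samples were all far above the controls, and Cd38 rose by 3.97 and 3.12 on the log2 scale, a difference of 0.85 (adjusted p = 4.66e-04). Both its untreated and its treated levels were higher in the nApoE3 experiment (untreated log2 difference 1.76, adjusted p = 1.84e-05 in the same test). Nadk, the kinase that turns NAD+ into NADP+, rose by 1.60 and 1.34. Sirt3, a mitochondrial deacetylase that uses NAD+, changed by -0.98 and -1.16, both called lower. Nmnat2 (1.36) and Sarm1 (-1.48) were called with nApoE3 alone, on 4 to 37 and 10 to 87 counts per sample, and neither differed between the fragments by test (adjusted p = 0.453 and 0.287).

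Of the enzymes that remove ADP-ribose and the proteins that read it, 3 were higher and 3 lower of 15 tested with nApoE4, and 4 and 4 of 16 with nApoE3 (medians 0.035 and -0.034). Of all genes, 57.2% and 67.7% were called. Adprhl1, a relative of the ADP-ribose hydrolases, was called higher with both, on at most 57 counts per sample. Oard1, a macrodomain hydrolase, was called higher with nApoE3 on 4 and 142 counts in the treated samples against 14, 6 and 9 in the controls, so its value rests on 1 library.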
